A study of Schizosaccharomyces pombe with 40 samples.

Results

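The 56 transcripts described here are long non-coding RNAs (lncRNAs) of fission yeast, Schizosaccharomyces pombe, that lie apart from other annotated features and that were most abundant late in meiosis in wt cells. They were chosen by 4 conditions. The identifier begins with SPNCRNA, under 10% of the length is shared with any other feature on either strand, the mean over all 20 wt libraries is at least 1 CPM (counts scaled to library size), and the wt stage mean of log2(CPM + 1) is highest at 5, 6, 7 or 8 h. Of the 12684 features counted, 7213 had an SPNCRNA identifier, 648 of these passed the overlap limit and 207 of those also passed the CPM limit. The other 151 of the 207 peaked in wt at 2 to 4 h (52) or in growing cells, starved cells or at 1 h (99). As the choice rests on wt values, the wt courses and the differences between the strains are given as descriptions, and only differences within the mutant strain were tested.

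All cells were haploid, of mating type h-, and carried leu1-32 and pat1-L95G::kanR. Pat1 is the kinase that keeps meiosis off, and the L95G change lets the ATP analogue 3-MB-PP1 block it, so that starved haploid cells enter a synchronous, ectopic meiosis without a mating partner. The wt strain carried no further mutation. The second strain, snR107kloopmut (kloopmut below), had a conserved motif in the kink-loop of the C/D box snoRNA snR107 replaced by its reverse complement. snR107 is processed from an intron of the lncRNA mamRNA. Each strain was sampled while growing in EMM at 30 °C (V) and after overnight nitrogen starvation (-N). It was then sampled hourly from 1 to 8 h after 25 µM 3-MB-PP1 was added together with leucine and ammonium chloride. In comparisons with -N, the inhibitor and the return of nitrogen cannot be told apart. Poly(A)+ RNA of 2 replicates per strain and stage gave 40 libraries in 20 groups. The replicates were taken to be 4 cultures followed through the stages, so aliquots of one culture are not independent.

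Long non-coding RNAs are transcribed by RNA polymerase II and usually capped and polyadenylated, but carry no long open reading frame. In fission yeast many are removed by the nuclear exosome during growth and build up when cells differentiate. In meiosis the forkhead factor Mei4 and, after it, bZIP factors of the Atf family switch on waves of genes for the nuclear divisions and for spore formation, and the RNA-binding protein Mmi1 directs meiotic transcripts to decay in growing cells through a short hexamer. Of the 56, 1 carries a gene name in the annotation used.

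Total counts per library lay between 22889781 and 35440184, so that 3 counts, taken as the floor, correspond to 0.0846 to 0.131 CPM. Floors and intervals cover counting error only. The 56 lncRNAs held between 0.0282% and 0.169% of a library's counts. Trimmed mean of M values (TMM) factors ran from 0.513 to 1.47, with the lowest in late wt libraries. The pair of wt V replicates differed most from each other, followed by that of kloopmut at 2 h. Of the mating type markers, mfm1 and map2 went with the h- type of the strains. The gene mfm1, a precursor of the M-factor pheromone of h- cells, lay between 31280 and 41150 RPKM (CPM per kilobase of length) in the 4 starved libraries. The P-factor precursor of h+ cells, map2, lay between 0.0886 and 0.660 RPKM in them. The other h+ markers, map1 and map3, were not absent. In the starved libraries map1 lay between 37.1 and 47.1 RPKM, above its 8.44 to 11.6 at V, and map3 between 19.6 and 27.7. They share 91.5% and 99.8% of their length with other features. In bulk RNA, fewer cells expressing a transcript and less RNA per cell cannot be told apart.

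The sequences just upstream of the lncRNAs are shown first, for the 5 members with the highest wt level or the largest wt rise. Each window holds the 250 bases before the annotated start and the first 50 bases of the transcript, on its strand, and comes from the RefSeq genome ASM294v3. A motif found in a window is in capitals.
SPNCRNA.6744, chrIII:203625-203924, + strand: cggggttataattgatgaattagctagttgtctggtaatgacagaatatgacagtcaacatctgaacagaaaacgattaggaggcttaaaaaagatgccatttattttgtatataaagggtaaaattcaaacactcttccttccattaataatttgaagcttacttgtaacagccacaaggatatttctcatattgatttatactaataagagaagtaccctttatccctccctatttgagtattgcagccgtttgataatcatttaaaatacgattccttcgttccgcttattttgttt
SPNCRNA.2924, chrI:2064385-2064684, + strand: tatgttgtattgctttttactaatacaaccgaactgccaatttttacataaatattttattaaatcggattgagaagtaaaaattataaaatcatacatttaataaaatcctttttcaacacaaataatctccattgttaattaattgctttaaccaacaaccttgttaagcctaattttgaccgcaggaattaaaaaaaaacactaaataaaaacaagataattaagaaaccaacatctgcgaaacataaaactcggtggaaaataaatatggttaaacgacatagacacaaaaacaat
SPNCRNA.2467, chrI:1076491-1076790, + strand: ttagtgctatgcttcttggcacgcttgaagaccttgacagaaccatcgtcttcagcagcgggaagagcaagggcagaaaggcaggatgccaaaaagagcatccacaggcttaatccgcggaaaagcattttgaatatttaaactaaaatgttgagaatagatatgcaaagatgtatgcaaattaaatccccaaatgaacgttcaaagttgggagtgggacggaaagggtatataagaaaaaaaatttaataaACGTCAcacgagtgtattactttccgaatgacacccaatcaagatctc
SPNCRNA.3820, chrI:4077768-4078067, + strand: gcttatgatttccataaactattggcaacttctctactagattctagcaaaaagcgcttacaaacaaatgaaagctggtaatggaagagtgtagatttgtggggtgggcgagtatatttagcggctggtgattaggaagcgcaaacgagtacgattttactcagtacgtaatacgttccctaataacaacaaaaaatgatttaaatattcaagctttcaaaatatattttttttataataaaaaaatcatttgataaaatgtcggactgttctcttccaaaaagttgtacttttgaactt
SPNCRNA.6980, chrIII:708141-708440, - strand: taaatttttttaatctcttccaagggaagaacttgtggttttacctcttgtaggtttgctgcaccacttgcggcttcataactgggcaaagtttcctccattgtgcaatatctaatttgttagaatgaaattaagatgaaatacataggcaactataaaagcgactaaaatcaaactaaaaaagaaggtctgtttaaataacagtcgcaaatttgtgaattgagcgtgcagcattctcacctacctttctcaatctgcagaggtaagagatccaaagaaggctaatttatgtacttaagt
Only the window of SPNCRNA.2467 held one of the 4 motifs searched, and these windows had between 25.7% (SPNCRNA.2924) and 40.3% (SPNCRNA.2467) G and C.

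The 4 motifs were searched on both strands in windows of this length before all 12637 features. GTAAACA, the core bound by Mei4, was in 9 of 56 windows (16.1%) against 12.97% of all windows and 16.5% of those of protein-coding features. TGACGT, the core of the Atf/CREB site, was in 7 of 56 (12.5%) against 5.48% of all, and in 3.85% and 5.05% of the stand-alone lncRNAs that peaked at 2 to 4 h and at V, -N or 1 h. ACGCGT, bound by the cell-cycle factor MBF, was in 0 of 56 against 2.46% of all, and TTCTTTGTT, the TR box of Ste11, was in 1 of 56 against 1.88%. A match describes these letters only, and 31 of the 56 windows touch a protein-coding feature. The TGACGT matches with their flanks are given because this was the motif whose share among the 56 was furthest above that of all windows; ACGTCA is the same site read on the other strand.
SPNCRNA.213, chrI:3076900-3076925, + strand: ctttgctacgTGACGTtgcttttaca
SPNCRNA.3811, chrI:4059361-4059386, + strand: ccattactatTGACGTtggttaacat
SPNCRNA.519, the match further from the start, chrIII:2362090-2362115, + strand: taatatggatTGACGTtgtatgcaag
SPNCRNA.519, the match nearer the start, chrIII:2362160-2362185, + strand: taatgagatgTGACGTtatggacaat
SPNCRNA.545, chrII:3933154-3933179, + strand: gtgttcccaaACGTCAagtgccaatc
The match at SPNCRNA.213 is also that of SPNCRNA.3379, which starts 106 bases away on the opposite strand. Both thus share 1 site, which spans the start of SPNCRNA.213. The pair also shared its course: both peaked at 6 h in wt and at 7 h in kloopmut. The remaining TGACGT windows were those of SPNCRNA.2467, shown above, and SPNCRNA.3787. In SPNCRNA.3811 and SPNCRNA.2467 the match lies within the transcript, beginning at its base 1 and base 3.

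The GTAAACA matches of SPNCRNA.4284 and SPNCRNA.7637 lie in closely related sequence on different chromosomes. This pair was picked out after its sequences had been seen. Below are 120 bases from each, starting 10 bases before the motif, which is in capitals.
SPNCRNA.4284, chrI:5066200-5066319, - strand: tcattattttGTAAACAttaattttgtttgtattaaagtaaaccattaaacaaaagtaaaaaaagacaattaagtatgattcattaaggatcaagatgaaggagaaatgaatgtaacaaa
SPNCRNA.7637, chrIII:2108681-2108800, + strand: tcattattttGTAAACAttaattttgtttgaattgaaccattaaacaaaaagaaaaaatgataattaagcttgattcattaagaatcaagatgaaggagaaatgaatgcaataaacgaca
In an alignment of these stretches 106 of 125 positions (84.8%) were identical and 10 were gaps, whereas the whole transcripts were 53.7% identical. Each had a long terminal repeat upstream, at 153 and 80 bases, and a wtf pseudogene converging from downstream, wtf1 at 133 and wtf22 at 238 bases. The wtf family encodes spore killers that act as meiotic drivers. SPNCRNA.7659 also had wtf24 217 bases downstream. Within 500 bases, 3 of 56 members (5.36%) had a wtf feature, against 0 of 52 and 2 of 99 (2.02%) of the other stand-alone lncRNAs. A long terminal repeat lay as near to 3 of 56 members (5.36%), against 5.77% and 12.1% of those sets.

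The annotated lengths ran from 163 to 1610 bases with a median of 515.5, and the median share of G and C was 33.7%, against 32.7% and 32.8% for the other stand-alone lncRNAs. Chromosomes I, II and III held 26, 20 and 10 of the members (46.4%, 35.7% and 17.9%), and 3 lay within 100 kb of a chromosome end. TNAAAC, the hexamer bound by Mmi1, occurred on the sense strand of 37 of 56 (66.1%), against 76.9% and 68.7% of the other stand-alone lncRNAs, and the median density was 1.59 per kb against 2.41 and 1.91. Identical stretches of 50 bases elsewhere in the genome made up 78.3% of those in SPNCRNA.4506, 69.3% in SPNCRNA.7637 and 36.6% in SPNCRNA.7659. The values of these 3 are uncertain, since the handling of reads that map to several places is not given in the sources used here.

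Many of the 56 stood beside a protein-coding gene with a late course of its own. The nearest coding gene lay a median of 134.5 bases away and within 500 bases for 49 of 56, most often as a divergent neighbour (32 of 56). For the stand-alone lncRNAs with a wt peak at 2 to 4 h the median was 129 bases, with 45 of 52 within 500 bases and 27 divergent. For those with a wt peak at V, -N or 1 h it was 126 bases, with 81 of 99 and 40. In kloopmut the nearest coding gene peaked at 5 to 8 h for 29 of 56 (51.8%), against 26.9% and 25.3% for the other stand-alone lncRNAs and 25.4% of 5075 coding features tested. On at least 1 side such a neighbour was present for 45 of 56, against 25 of 52 and 42 of 99 in the other sets. SPNCRNA.6744 stands 135 bases before ght6, of the hexose transporter family and on the same strand, which reached 9464 RPKM in wt at 6 h. SPNCRNA.3379 and SPNCRNA.213 lie between spn5, a septin of the meiotic septin complex, and SPAC16A10.01. For both, SPAC16A10.01 is the nearer gene, and it peaked at -N in both strains. SPNCRNA.6021 has another meiotic septin gene, spn7, at 255 bases, and SPNCRNA.2917 has spo3, needed for the forespore membrane, at 478 bases.

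Levels per length differed widely in wt. At the peak stage the lowest member had 3.81 RPKM, the median was 39.7 and the highest, SPNCRNA.6744, reached 2031 ± 263 (SD, n = 2). The peak came at 5, 6, 7 and 8 h for 10, 17, 12 and 17 members, with median peak levels of 19.9, 35.5, 51.6 and 39.8 RPKM. The rise from -N to the peak on the log2(CPM + 1) scale had medians of 1.07, 1.99, 1.36 and 1.60 for these stages. Relative to wt -N, on the log2 scale, the median normalised course over the 56 first fell. It was -0.28, -0.41 and -0.14 at 1, 2 and 3 h, and 0.18 at 4 h. In the 4 late stages it reached 0.87, 1.89, 1.97 and 1.79.

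SPNCRNA.6744 (III:203875-204597, + strand) had the widest range. In normalised CPM, that is, with library sizes scaled by TMM, the wt libraries gave 0 and 0.0817 at V, 0.0527 and 0 at -N, and 1.63 and 0.408 at 4 h for replicates 1 and 2. They then gave 222 and 203 at 5 h, 1204 and 1145 at 6 h, 1603 and 1334 at 7 h, and 747 and 641 at 8 h. In kloopmut the values were 6.16 and 6.53 at 5 h, 109 and 125 at 6 h, 530 and 544 at 7 h, and 670 and 485 at 8 h. At 5, 6 and 7 h both wt libraries were above both kloopmut libraries, while at 8 h the ranges overlapped. The kloopmut -N libraries held 2 counts in all, so the ratio of kloopmut 8 h to -N was 22920 with a 95% counting interval of 6345 to 189300.

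The 5 h group was led by SPNCRNA.2467 and SPNCRNA.6754. SPNCRNA.2467 had 207 and 191 normalised CPM in wt at -N, dropped to 9.75 and 16.4 at 1 h, stood at 629 and 718 at 5 h and at 45.3 and 80.2 at 8 h. In kloopmut the same transcript had 264 and 245 at -N, 177 and 180 at 5 h, 274 and 390 at 6 h, 360 and 384 at 7 h and 238 and 167 at 8 h. It thus was high at -N and again late in both strains, at 5 h in wt and at 6 and 7 h in kloopmut. SPNCRNA.2467 stands 47 bases from plb1, a phospholipase gene read in the other direction. SPNCRNA.6754 went from 12.4 and 15.0 at -N to 450 and 386 at 5 h and back to 50.8 and 45.0 at 8 h in wt. Its kloopmut libraries stayed between 71.6 (8 h) and 169 (6 h) over the last 4 stages. SPNCRNA.3820 had a narrow wt course, with 0.0527 and 0.446 at -N, 65.3 and 71.2 at 5 h and 3.52 and 5.43 at 7 h, against a kloopmut maximum of 13.7 and 8.80 at 6 h.

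Among the members with their wt peak at 6 h, the highest levels per length were those of SPNCRNA.5421 (121 ± 2.64 RPKM, SD, n = 2) and SPNCRNA.5337 (103 ± 13). SPNCRNA.5421 had 63.6 and 61.7 normalised CPM in wt at 6 h and 16.0 and 16.9 at 8 h. In kloopmut it had 40.9 and 38.0 at 6 h, 99.4 and 98.3 at 7 h, and 73.3 and 69.8 at 8 h, so its kloopmut maximum was both later and higher. SPNCRNA.5337 went the other way in level, with 21.8 and 26.1 in wt at 6 h, 20.1 and 31.9 at 7 h, and no more than 11.8 in any kloopmut library. SPNCRNA.384, with 148 and 144 in wt at 7 h, had 42.3 and 35.7 in kloopmut at that stage and 83.5 and 85.6 at 8 h.

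Of the members that peaked at 8 h, SPNCRNA.2924 had the highest level per length (1434 ± 75.3 RPKM, SD, n = 2). Its wt libraries gave 36.8 and 31.5 normalised CPM at -N, 30.0 and 24.6 at 6 h, 200 and 209 at 7 h and 339 and 315 at 8 h. Its kloopmut libraries gave 29.7 and 43.2 at -N, 25.1 and 29.4 at 7 h and 93.3 and 99.3 at 8 h, below both wt libraries at 7 and 8 h. It abuts pil2, an eisosome gene that converges on it and also peaked at 8 h. SPNCRNA.6980 was higher in the mutant at the end, with 97.5 and 87.1 in wt and 177 and 200 in kloopmut at 8 h. Its wt libraries had 102 and 90.4 at 7 h. The related pair SPNCRNA.4284 and SPNCRNA.7637 both stood below wt in kloopmut at 7 and 8 h. At 7 h they had 109 and 111, and 79.1 and 87.8, in wt, and 30.8 and 25.8, and 17.9 and 19.1, in kloopmut. At 8 h they had 100 and 96.8, and 78.2 and 80.7, in wt, and 58.7 and 61.3, and 39.6 and 46.2, in kloopmut. Peak stages rest on plain CPM. In normalised CPM the wt means of this pair and of SPNCRNA.6980 were higher at 7 h than at 8 h. The plot of single libraries shows these courses for the 8 most abundant members, and the heat map gives all 56.

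**Figure D1:**
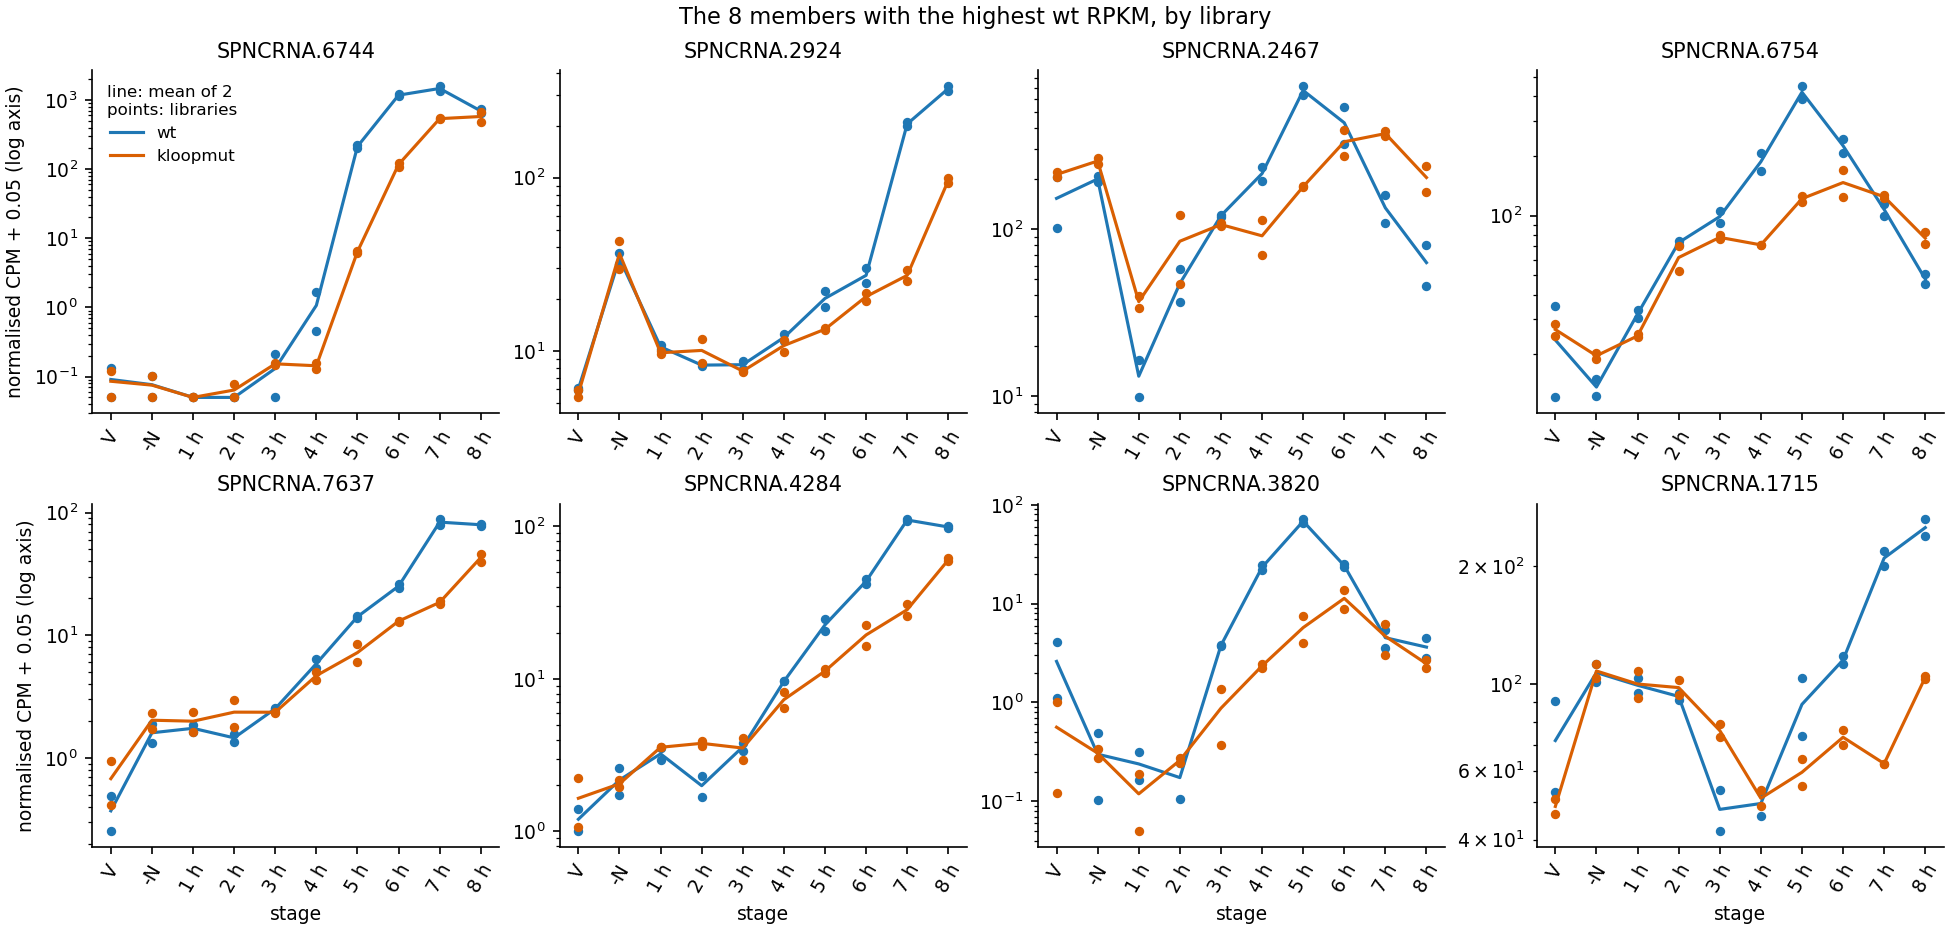
Normalised CPM plus 0.05 on a log axis against stage for the 8 lncRNAs with the highest wt RPKM; points are libraries and lines join the means of 2, in wt and kloopmut. For SPNCRNA.6744 the kloopmut points lie below the wt points from 5 to 7 h (6.16 and 6.53 against 222 and 203 at 5 h).

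**Figure D2:**
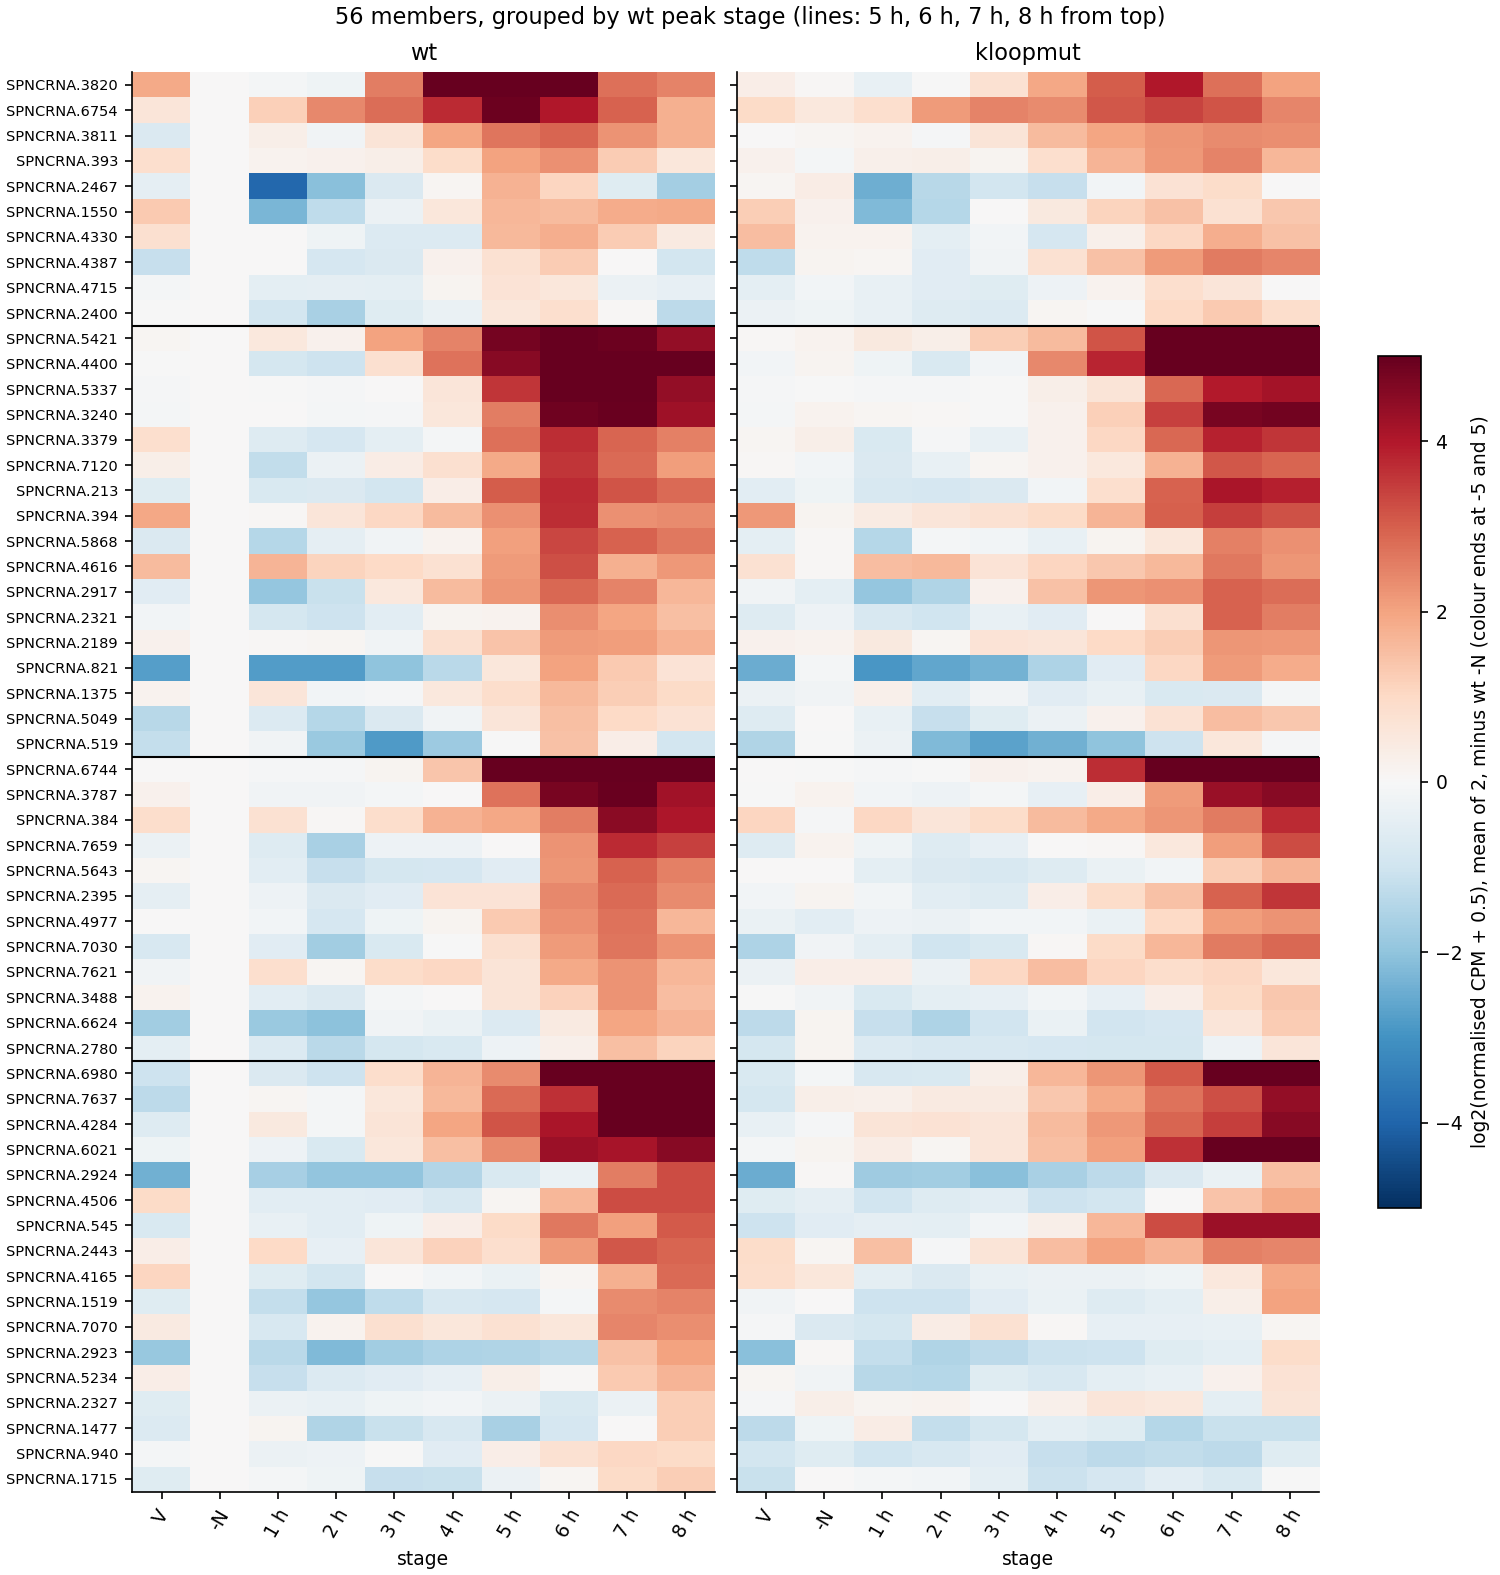
Log2 of normalised CPM plus 0.5, mean of 2 libraries, minus the wt -N mean, for the 56 lncRNAs (rows) and 10 stages (columns) in wt and kloopmut; lines part the 10, 17, 12 and 17 transcripts with a wt peak at 5, 6, 7 and 8 h. Colours saturate at -5 and 5, and 13 of the 17 transcripts of the 6 h block had their kloopmut peak at 7 h.

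Whether these transcripts also rise late in the mutant was tested in the kloopmut libraries, which played no part in the choice. The means of the 4 late stages, 5 to 8 h, were compared with -N, with V and with the mean of 1 to 4 h, and 8 h with 5 h. The main fit had no term for culture, so its p-values treat libraries of the same culture as independent. Against -N, 39 of 56 were higher and 5 lower by edgeR's quasi-likelihood test at an adjusted p below 0.05, with a median log2 difference of 1.92; of all 12019 features tested, 34% were higher and 39.8% lower and the median was -0.11. Against V, 42 were higher and 0 lower (36% and 39.3% of all features), with a median of 2.10. The count of 0 was also 0 at an unadjusted p below 0.05, and with DESeq2 and limma-voom. Against 1 to 4 h, 49 were higher and 1 lower (38.8% and 42.5%), with a median of 1.99. From 5 to 8 h, 40 were higher and 1 lower (35.7% and 32%), with a median of 2.19.

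These splits depend in part on how libraries are scaled. With library totals in place of TMM the median of all features moved to -0.80, -0.38, -0.65 and -1.0 in the 4 comparisons. The counts of members higher and lower became 30 and 13, 39 and 1, 47 and 5, and 31 and 9. The shares of all features were 17.8% and 62.3%, 27.6% and 48.3%, 23% and 61.4%, and 12.5% and 63.7%. Relative to the median of all features, the members' median was 2.02, 2.18, 2.05 and 2.11 with TMM and 2.03, 2.18, 2.05 and 2.11 with totals.

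SPNCRNA.6744 had the largest rise over 1 to 4 h, with a log2 difference of 11.99 ± 0.26 (SE, adjusted p = 9.59e-24, edgeR), and the largest from 5 to 8 h, at 6.51 ± 0.31 (adjusted p = 9.92e-16). SPNCRNA.5421 was 6.44 ± 0.32 above -N (adjusted p = 8.53e-17, edgeR) and SPNCRNA.4400 5.80 ± 0.35 (adjusted p = 1.08e-14). SPNCRNA.6980 was 5.50 ± 0.31 above -N in its mean of 5 to 8 h. Its rise from 5 to 8 h, within the stages of that mean, was 5.20 ± 0.29 (adjusted p = 3.13e-15, edgeR). Some rises started from no reads: the kloopmut V libraries held 0 counts of SPNCRNA.5337 and of SPNCRNA.3240, and the 8 h libraries had 6.70 and 11.8, and 15.2 and 14, normalised CPM. SPNCRNA.3787 stands 320 bases from the divergent gene SPAC27E2.11c, which reached 55914 RPKM in wt. Its nearest coding gene is the convergent mug155, at 0 bases, which reached 8.92 RPKM in wt. SPNCRNA.3787 itself had 0.564 and 0.247 normalised CPM at 5 h and 15.4 and 16.5 at 8 h in kloopmut, a rise of 5.29 ± 0.47 (adjusted p = 6.58e-11, edgeR).

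The only member with a gene name of its own, prl9 (SPNCRNA.1519, II:2485484-2486494, - strand), had 42.9 and 38.2 normalised CPM in wt and 27.7 and 30.3 in kloopmut at 8 h. In kloopmut prl9 rose by 2.79 ± 0.30 from 5 to 8 h (adjusted p = 4.29e-09, edgeR) and its late mean differed from -N by 0.28 ± 0.23 (adjusted p = 0.280).

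The 5 members whose mean over the late stages was lower than at -N in kloopmut were already present in starved cells. SPNCRNA.1715 (II:1307681-1308804, + strand) is the locus of mamRNA, the host of snR107, so that the mutated bases lie within the locus that is counted. It shares 9.96% of its length with the snoRNA snoU14. It had 113 and 101 normalised CPM in wt at -N, 46 and 52.8 at 4 h, 201 and 219 at 7 h and 264 and 239 at 8 h. In kloopmut it had 113 and 103 at -N, 62.5 and 62.5 at 7 h and 103 and 105 at 8 h, level with wt at -N and below both wt libraries at 7 and 8 h. The late kloopmut mean of SPNCRNA.1715 was 0.57 ± 0.13 below -N on the log2 scale (log2 difference -0.57, adjusted p = 0.000202, edgeR), a call that was lost without kloopmut replicate 1 (-0.46, adjusted p = 0.0683).

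SPNCRNA.1477 had the largest of these falls, with a log2 difference of -0.98 ± 0.25 (SE, adjusted p = 0.00101, edgeR). It had 12.1 and 15.2 normalised CPM in wt at 8 h and 2.93 and 1.72 in kloopmut, where its -N libraries had 5.23 and 4.11. SPNCRNA.519, with a pair of TGACGT matches before its start, fell by 0.64 ± 0.21 (adjusted p = 0.00706) as a mean of unequal stages: 2.93 and 2.97 at 5 h, but 20.1 and 20.5 at 7 h, against 13.5 and 12.8 at -N. SPNCRNA.2780 fell by 0.57 ± 0.19 (adjusted p = 0.00792) and SPNCRNA.2924 by 0.33 ± 0.11 (adjusted p = 0.0124). These too are means of unequal stages, and at 8 h both kloopmut libraries stood above both -N libraries. The values at 8 h and -N were 9.54 and 9.54 against 7.63 and 6.26 for SPNCRNA.2780. For SPNCRNA.2924 they were 93.3 and 99.3 against 29.7 and 43.2. The call of SPNCRNA.2780 was lost without kloopmut replicate 1 (-0.35, adjusted p = 0.292) and that of SPNCRNA.2924 without replicate 2 (-0.06, adjusted p = 0.730). Over all members the count of 5 was 3 without replicate 1 and 6 without replicate 2.

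SPNCRNA.1477 was also the only member lower at 5 to 8 h than at 1 to 4 h (-0.58 ± 0.17, adjusted p = 0.00338, edgeR), which did not hold without kloopmut replicate 2 (-0.30, adjusted p = 0.243). SPNCRNA.6754 was the only member lower at 8 h than at 5 h (-0.66 ± 0.24, adjusted p = 0.0171, edgeR), a fall of like size that did not pass the threshold without replicate 1 (-0.74, adjusted p = 0.111) or replicate 2 (-0.59, adjusted p = 0.219). SPNCRNA.3820, with -1.22 ± 0.57 from 5 to 8 h, did not pass the test (adjusted p = 0.0607). The plot of the 4 comparisons orders the 56 by size.

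**Figure D3:**
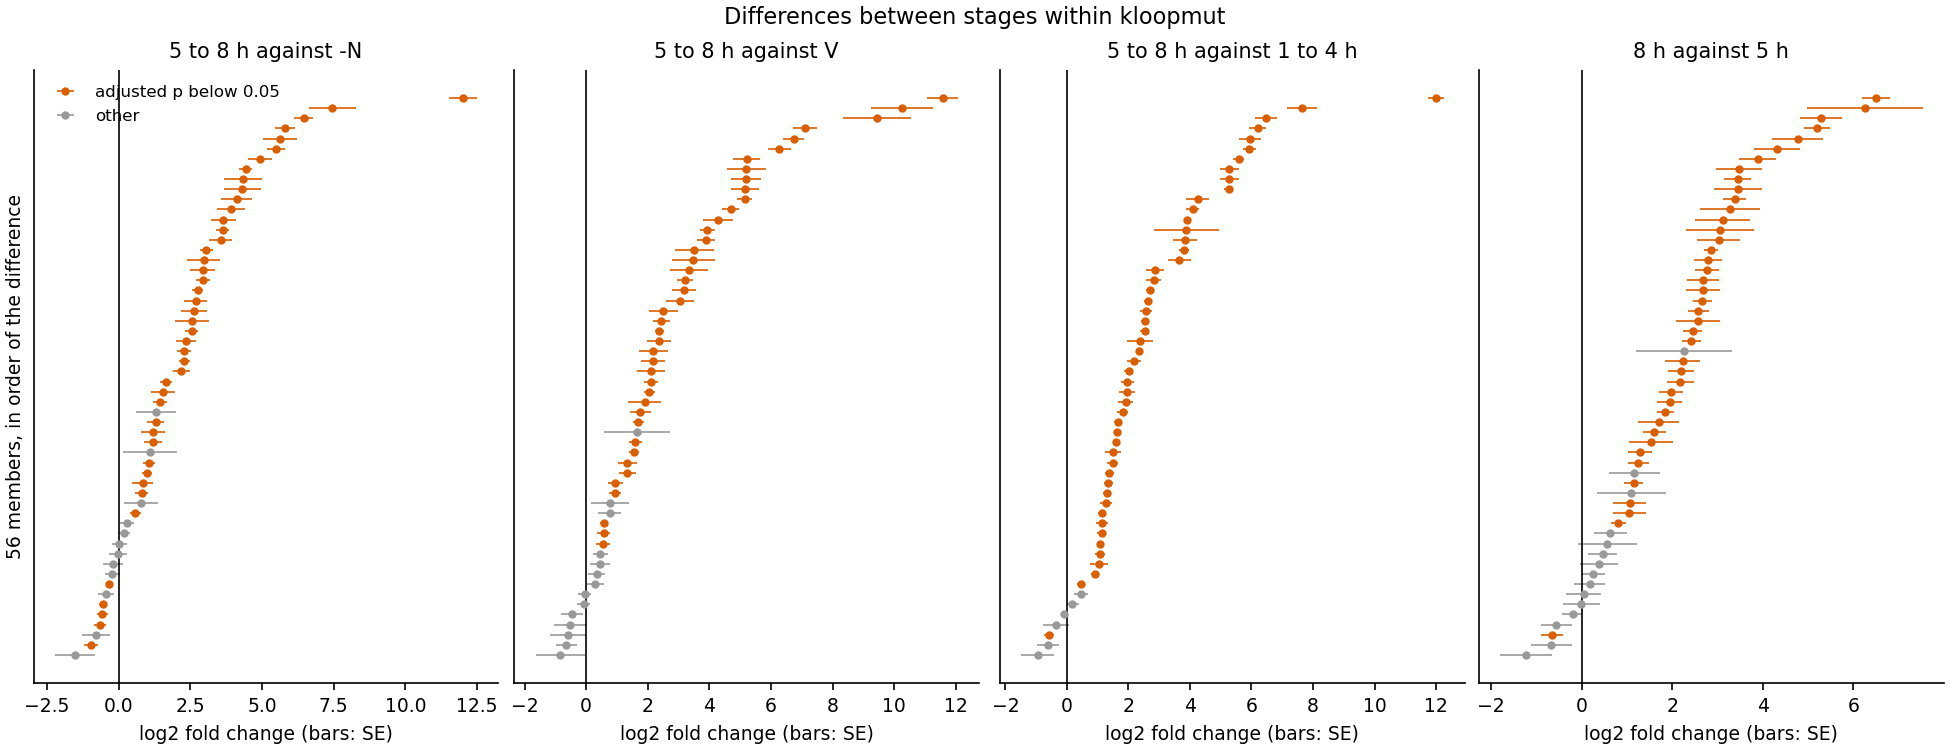
Log2 differences within kloopmut for the 56 lncRNAs, ordered by size in each panel, with bars of 1 SE; colours mark those past an adjusted p of 0.05 by edgeR. Against -N 39 lie to the right of 0 and 5 to the left among those past the threshold, and from 5 to 8 h 40 and 1.

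The stage of the highest mean was compared between the strains as a description. On plain CPM, 44 of 56 members (78.6%) peaked at 5 to 8 h in kloopmut too, against 80.2% of the 1009 protein-coding features with a wt peak at those stages; on normalised CPM it was 50. Of the 39 members with a wt peak at 5, 6 or 7 h, 27 (69.2%) peaked exactly 1 h later in kloopmut, among them 5 of 10, 13 of 17 and 9 of 12 by stage. Protein-coding features with a wt peak at 5 to 7 h did so in 541 of 808 cases (67.0%), with 51.2%, 76.8% and 70.1% by stage, so the share among the lncRNAs was close to theirs. Of the 17 members with a wt peak at 8 h, the last stage sampled, 8 peaked at 8 h in kloopmut and a later maximum could not have been seen. On plain CPM, the 12 members whose kloopmut maximum left the late stages were 6 at -N, 2 each at 1 h and 3 h, and 1 each at V and 4 h. On normalised CPM, of those at -N, SPNCRNA.1715 kept its maximum there. SPNCRNA.2467, SPNCRNA.519, SPNCRNA.5234, SPNCRNA.2780 and SPNCRNA.2923 then peaked late, as did SPNCRNA.4330, the member at V.

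**Figure D4:**
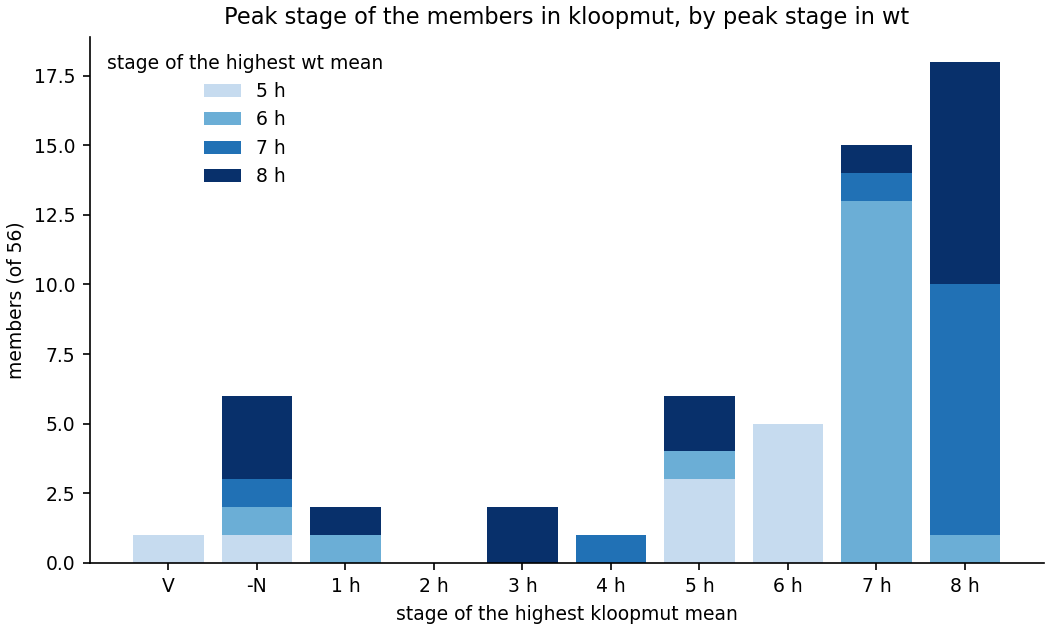
Number of the 56 lncRNAs (bars, stacked by wt peak stage) with their highest kloopmut mean at each stage. The kloopmut maxima fell at 7 h for 15 and at 8 h for 18, where wt had 12 and 17.

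By the median over the members, the levels of kloopmut and wt stood furthest apart at 5 and 6 h. The median over the 56 of the log2 difference kloopmut minus wt was 0.07 at -N, 0.42 at 2 h and -0.29 at 4 h. For 5, 6, 7 and 8 h it was -0.72, -0.84, -0.27 and 0.17. At 5 h 44 of 56 and at 6 h 50 of 56 were lower in kloopmut. These sizes rest on the scaling: with library totals the medians at 5 and 6 h were -0.10 and -0.04 and 30 and 31 of 56 were not higher, as the median of all features moved to 0.61 and 0.91. Relative to the median of all features the members stood at -0.72 and -0.95 with TMM and at -0.71 and -0.95 with totals. The median course reached 0.42, 0.95, 1.93 and 1.79 above wt -N at 5, 6, 7 and 8 h in kloopmut. Similar medians did not mean similar levels of single members: at 7 h 23 of 56 were lower and 10 higher in kloopmut by over 1 on the log2 scale, and at 8 h 11 and 14.

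**Figure D5:**
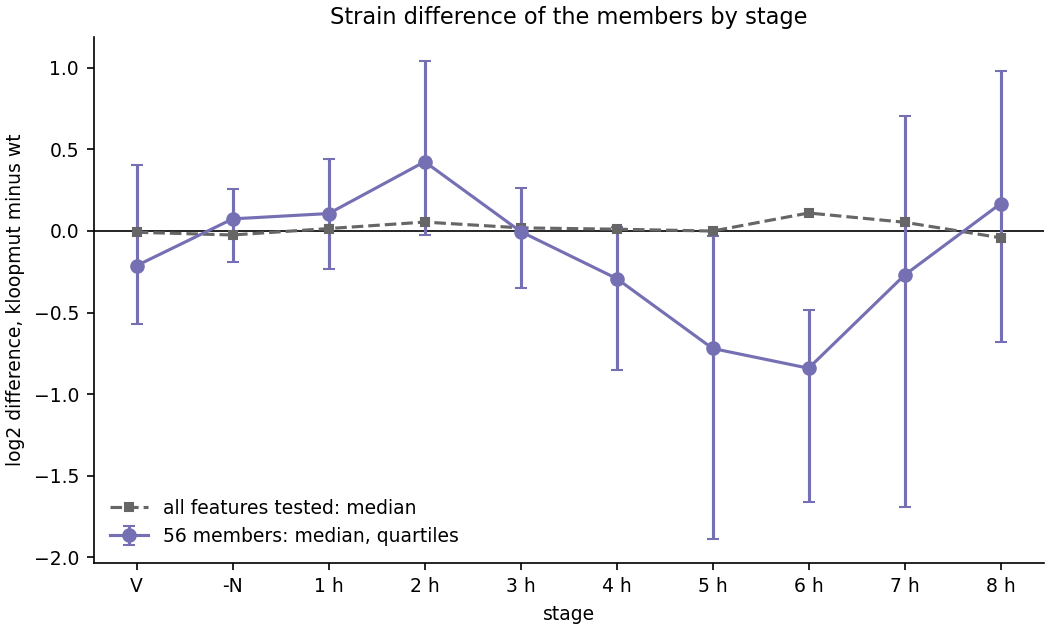
Median log2 difference kloopmut minus wt over the 56 lncRNAs at each stage (points, with bars from the lower to the upper quartile) beside the median over all features tested (squares). The members stand at -0.72 and -0.84 at 5 and 6 h and at 0.17 at 8 h.

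Members differed in direction over the late mean. SPNCRNA.4387 stood highest in kloopmut relative to wt, at 2.34 ± 0.22 (SE): at 8 h it had 0.458 and 0.257 normalised CPM in wt and 8.88 and 7.66 in kloopmut. SPNCRNA.545, which holds the Atf/CREB core, the Mei4 core and the TR box in its window, followed at 1.22 ± 0.10, with 9.67 and 9.50 in wt and 45.8 and 48.2 in kloopmut at 7 h. At the other end SPNCRNA.940 stood at -3.60 ± 0.49, SPNCRNA.1375 at -2.74 ± 0.33 and SPNCRNA.7070 at -2.58 ± 0.37. SPNCRNA.940 was scarce throughout, at 3.73 normalised CPM or less in any wt library and 0.909 or less in any kloopmut library. SPNCRNA.1375 and SPNCRNA.7070 were scarce too, with at most 3.52 and 5.87 in a wt library and 1.17 and 1.94 in a kloopmut library. At 7 h the kloopmut libraries held 4 and 4 counts of SPNCRNA.1375, and 11 and 3 of SPNCRNA.7070. For mamRNA (SPNCRNA.1715) the late difference was -1.06 ± 0.08, and the allele itself lies in that locus.

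Genes that act at the same stages were read in the same kloopmut tests. Of 12 genes for the spore wall and late sporulation, 11 were higher at 5 to 8 h than at -N and cda1, a chitin deacetylase gene, was lower, with a median log2 difference of 4.82; isp3, which encodes a coat protein of the spore surface, was at 12.27 ± 0.57 (adjusted p = 2.36e-17, edgeR). Of 7 late meiotic transcription factors 6 were higher, among them mei4 (4.73 ± 0.17) and atf21 (5.13 ± 0.16), and rsv2 did not pass the test (-0.08 ± 0.15). Of 20 RNA decay factors 7 were higher and 10 lower (35% and 50%, against 34% and 39.8% of all features), with a median of -0.14. Among the higher were dcr1, which encodes the Dicer ribonuclease (2.76 ± 0.16, adjusted p = 4.09e-15, edgeR), and upf1, a helicase gene of nonsense-mediated decay (1.94 ± 0.11, adjusted p = 1.45e-15). Among the lower, rrp6, the nuclear exosome's exonuclease, was at -1.64 ± 0.15 (adjusted p = 1.08e-10, edgeR) and mmi1 at -1.0 ± 0.12 (adjusted p = 1.43e-08). Most of these genes overlap other features, by 62.5% of the length for isp3 and 81.1% for rrp6, and whether reads were counted by strand is not given in the sources used here.

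The stand-alone lncRNAs with an earlier wt peak gave other counts. Of the 52 that peaked at 2 to 4 h in wt, 30 were higher and 1 lower in late kloopmut stages than at -N (median 0.69), but from 5 to 8 h 4 were higher and 26 lower. Of the 99 that peaked at V, -N or 1 h, 9 were higher and 52 lower than at -N (median -0.87). The difference between these sets follows the choice by wt peak and was not tested.

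The borders of the set were narrow. The lowest mean wt levels inside were 1.02 CPM (SPNCRNA.2395) and 1.04 CPM (SPNCRNA.2321), and just outside lay SPNCRNA.6267 with 0.988 and SPNCRNA.3665 with 0.858. SPNCRNA.1715 at 9.96% and SPNCRNA.5234 at 9.21% were just inside the overlap limit, SPNCRNA.7552 at 10.03% and SPNCRNA.3817 at 10.4% just outside. The late maximum exceeded that of the other stages by 0.03 on the log2(CPM + 1) scale for SPNCRNA.4715 and 0.06 for SPNCRNA.2400, and fell short by 0.0056 for SPNCRNA.3111, which peaked at -N, and by 0.064 for SPNCRNA.4647, which peaked at V. The choice uses plain CPM; with TMM-scaled library sizes, which raise the late wt libraries, 107 lncRNAs would have met it, all 56 among them.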

How the data were processed

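Poly(A)+ RNA was selected with oligo-dT beads and sequenced for 40 libraries. The authors deposited 1 table of raw read counts per feature, neither normalized nor pooled. Per the submitters' processing notes, bcl2fastq 2.20, fastp 0.23.1, STAR 2.6.1d and featureCounts of Subread 2.0.6 were used; the genome and annotation releases, the strand setting and the handling of multiply mapped reads are not given in the sources used here. The study computed RPKM with edgeR relative to wt -N and states no test for these data.

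Counts were fitted with edgeR 4.0.16 in R 4.3.3, with 1 mean for each of 20 groups, TMM scaling and filterByExpr, which kept 12019 features, all 56 lncRNAs included, and removed 665. Two-sided quasi-likelihood tests were adjusted by Benjamini-Hochberg over all features tested, and an adjusted p below 0.05 was the threshold. RPKM and normalised CPM used TMM-scaled library sizes, while the rule and the peak stages used plain CPM with a pseudocount of 1. The code was tested on simulated data.

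The members, lists and tests were chosen with earlier results of these data known. Named lncRNAs were the 10 with the highest wt RPKM, the 5 largest wt rises from -N, the 2 highest at each wt peak stage, up to 5 rises and 5 falls in each test, 3 with the most positive and 3 with the most negative strain differences, those with a gene name, and the features at each threshold; transcripts named for a motif, a repeat or a neighbour were chosen after their values were seen.

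Of 12684 features, 12602 were found in the RefSeq annotation ASM294v3 by identifier and 12594 of them had the same start and end. Of the 56 members 55 matched; SPNCRNA.1715 was found there only as shorter transcripts named mamRNA. Libraries with the same replicate number were treated as aliquots of 1 culture, since the protocol describes hourly harvests. Deviations of same-numbered kloopmut libraries from their group means correlated between -0.365 and 0.522 over 45 pairs of stages (median 0.0394, 17 over 0.1), and those of wt between -0.0589 and 0.269 (9 over 0.1). Alternatives were size factors as in DESeq2 1.42.0, library totals, no filter, DESeq2, limma-voom (limma 3.58.1), kloopmut libraries alone, a replicate block and leaving out each replicate.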

Additional observations from a re-analysis of the deposited data

How the results depend on the processing

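Of 129 alternative counts and medians 25 moved. With library totals the counts of members lower in kloopmut were 13, 1, 5 and 9. They are for late against -N, V and 1 to 4 h, and for 8 h against 5 h. Of all features, 62.3%, 48.3%, 61.4% and 63.7% were lower with totals. The medians of kloopmut minus wt with totals were -0.10 at 5 h, -0.043 at 6 h, 0.15 at 7 h and -0.10 over 5 to 8 h. With DESeq2's size factors the medians were -1.01 at 6 h and -0.64 over 5 to 8 h, and TMM-scaled library sizes gave 107 members. Leaving out 1 replicate, the counts of members lower ranged from 3 to 6, 0 to 1, 1 to 2 and 0 to 1 in the same order, and the medians from -0.83 to -0.69 at 5 h, -1.06 to -0.88 at 6 h, -0.44 to -0.23 at 7 h, -0.020 to 0.21 at 8 h and -0.72 to -0.55 over 5 to 8 h. Why these values moved was not tested.

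With the replicate block, 2 members were lower at 8 h than at 5 h in place of 1, and no other count of members moved by over 1.5 times. Of 1122 alternative values of the named calls 1095 kept direction and side of the threshold, and 22 lost the call, 9 of them without kloopmut replicate 1, 7 without replicate 2 and 6 with library totals. The other 5 turned in sign with library totals, by edgeR: SPNCRNA.1715 from 5 to 8 h (-0.28, adjusted p = 0.160), SPNCRNA.2780 late against 1 to 4 h (-0.13, adjusted p = 0.380), SPNCRNA.4387 (-0.029, adjusted p = 0.950) and SPNCRNA.2400 (-0.018, adjusted p = 0.971) from 5 to 8 h, and SPNCRNA.4715 late against -N (-0.12, adjusted p = 0.572). Members with few counts at V or -N have fitted differences that are no bounds, and with 2 replicates a group the spread is shared over all 20 groups.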
